A study of Homo sapiens with 6 samples.

Results

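Promoter 6mA peaks were those peaks of 6mA-IP-seq on chromosomes 1 to 22 whose summit, the position of highest signal within the peak, lay within 1000 bp of a transcription start site (TSS) of a protein-coding or long noncoding RNA (lncRNA) gene on hg19. Of 143552 peaks in the 4 lists of the series, 138804 were autosomal and 3132 of these were promoter peaks. They numbered 737 and 689 in the control replicates and 835 and 871 in the si-N6AMT1 replicates. Overlapping peaks of the 4 libraries merged into 1554 promoter regions. In N6-methyladenine (6mA), a modified base of DNA, adenine carries a methyl group on its amino nitrogen, and in 6mA-IP-seq DNA fragments bound by a 6mA antibody are sequenced and counted over a background.

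All libraries came from MDA-MB-453, a human cell line established from breast cancer. Control cells received a scrambled siRNA and si-N6AMT1 cells an siRNA against N6AMT1, studied here as a methyltransferase for 6mA, each at 10 nM for 48 h. Each group had 2 immunoprecipitated libraries, labelled biological replicates, and 1 input without immunoprecipitation. The peak lists hold no expression value, so the degree of knockdown was not analysed here.

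A promoter is the stretch of DNA around a TSS at which RNA polymerase and general transcription factors assemble. Many promoters of housekeeping genes lie in CpG islands, which are rich in GC and in CpG dinucleotides, whereas those of many tissue-restricted genes and of many lncRNAs are poor in CpG. Adenine methylation is abundant in bacterial genomes, and its amount and distribution in mammalian nuclear DNA are debated.

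The sequence beneath the strongest promoter summits was simple and biased towards a pair of bases on each strand. In the 10 top-ranked promoter regions with calls in all 4 libraries, the commonest pair of bases (A and G, C and T, A and C, or G and T) made up 75% to 95% of the 100 bp on the strongest promoter summit, with a median of 84%. Of these 10 regions, 8 had at least 80%. The windows of 6 of them are given from the GRCh37 plus strand, 5′ to 3′, because they show what the most reproducible promoter summits had in common. Capitals mark the longest uninterrupted stretch made of only such a pair. That pair can differ from the commonest pair of the window, as at GPR83, where the stretch was of A and C. The SNX32 window, at chr11:65602061-65602160, lay in an intron and 75% of it was G or T. The UBE2QL1 window, at chr5:6448229-6448328, lay upstream of the gene and 88% of it was A or C. The window of the lncRNA gene ENSG00000280920, at chr7:54269353-54269452, lay in an exon of it and 76% of it was A or C. The FOXS1 window, at chr20:30433733-30433832, lay upstream and 81% of it was A or G. The window at APCDD1L and its divergent lncRNA gene APCDD1L-DT, at chr20:57090985-57091084, lay in an intron of APCDD1L-DT and was 95% A or G. The GPR83 window, at chr11:94133686-94133785, lay in an intron and 83% of it was A or G.
SNX32: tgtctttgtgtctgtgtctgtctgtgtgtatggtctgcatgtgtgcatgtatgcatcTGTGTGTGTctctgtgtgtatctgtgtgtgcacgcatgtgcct
UBE2QL1: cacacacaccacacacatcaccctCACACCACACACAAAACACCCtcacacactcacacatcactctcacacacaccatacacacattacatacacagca
ENSG00000280920: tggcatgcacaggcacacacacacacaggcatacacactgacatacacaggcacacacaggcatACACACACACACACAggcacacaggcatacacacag
FOXS1: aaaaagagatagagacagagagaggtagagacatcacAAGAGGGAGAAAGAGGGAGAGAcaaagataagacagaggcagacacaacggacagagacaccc
APCDD1L-DT: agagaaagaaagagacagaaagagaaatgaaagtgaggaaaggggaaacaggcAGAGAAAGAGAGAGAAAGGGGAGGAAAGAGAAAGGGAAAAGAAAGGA
GPR83: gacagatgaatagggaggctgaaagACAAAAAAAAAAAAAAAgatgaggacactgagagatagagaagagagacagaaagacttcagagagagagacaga

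Regions called by both libraries of 1 group and by none of the other group are represented by 4 windows, shown to compare their sequence with that of the shared regions. The G0S2 window, at chr1:209848022-209848121, and the EDF1 window, at chr9:139760128-139760227, were called only in control. Their commonest pair was C and T, at 69% and 76%, although the capitals at EDF1 mark a stretch of A and C. The DKK3 window, at chr11:12032252-12032351, and the LINC02178 window, at chr16:50428257-50428356, were called only in si-N6AMT1. All 100 bp at DKK3 were A or G, and 98% of the LINC02178 window was C or T, the highest shares among the 5 top-ranked regions of that kind. Over these 5 regions the share ranged from 74% to 100% with a median of 93%, and 3 of 5 had at least 80%. Over the 5 top-ranked regions called only in control it ranged from 69% to 82% with a median of 73%, and 1 of 5 had at least 80%. The ranges overlapped, and the printed windows do not stand for all 10. The G0S2 window opens with a CT repeat and goes on with a CA repeat, whereas the EDF1 window had 68% GC.
G0S2: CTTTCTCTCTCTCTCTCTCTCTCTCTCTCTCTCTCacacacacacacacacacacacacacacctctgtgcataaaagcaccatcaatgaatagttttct
EDF1: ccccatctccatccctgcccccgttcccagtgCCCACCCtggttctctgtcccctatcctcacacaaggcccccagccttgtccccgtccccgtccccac
DKK3: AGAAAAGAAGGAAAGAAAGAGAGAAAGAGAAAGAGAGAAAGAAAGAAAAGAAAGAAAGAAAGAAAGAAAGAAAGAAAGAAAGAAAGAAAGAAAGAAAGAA
LINC02178: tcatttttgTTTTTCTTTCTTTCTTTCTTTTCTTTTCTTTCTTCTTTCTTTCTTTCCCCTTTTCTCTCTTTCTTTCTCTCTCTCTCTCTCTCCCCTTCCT

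Numbers of promoter peaks were compared first, to ask whether they differed after N6AMT1 knockdown. The mean was 713 ± 33.9 (SD, n = 2) for control and 853 ± 25.5 (SD, n = 2) in si-N6AMT1, and the difference of 140 peaks was larger than the spread between replicates. Both si-N6AMT1 libraries lay above both control libraries, and permuting the libraries over their 6 assignments (exact, two-sided) gave p = 0.333, the smallest value it can give. The si-N6AMT1 lists were also longer as a whole, with 37563 and 39451 autosomal peaks against 29495 and 32295 in control. The genome-wide background that the peak caller applied, which rises with sequencing depth, was 1.05 and 1.36 fragments for control and 1.41 and 1.53 fragments for si-N6AMT1, so depth and knockdown cannot be told apart in counts of peaks.

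As a share of autosomal peaks, promoter peaks made up 2.499% and 2.133% in the control replicates and 2.22% and 2.21% in the si-N6AMT1 replicates. The groups overlapped, and the difference of -0.10 percentage points had p = 1 in the exact permutation test. Without control replicate 1 the difference was 0.0819 points. When each library kept only its 29495 autosomal peaks of highest −log10 p, promoter peaks numbered 737 and 651 for control and 694 and 707 for si-N6AMT1. The difference was then 6.5 peaks instead of 140, with p = 1 in the exact permutation test.

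**Figure D1:**
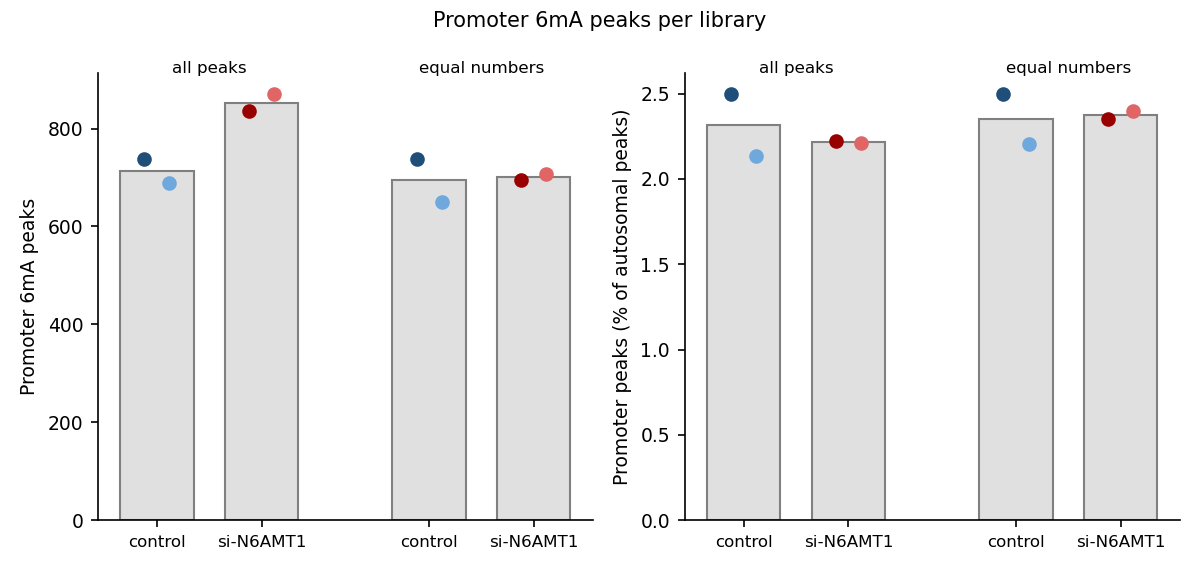
Number of promoter 6mA peaks (left) and their percentage of autosomal peaks (right) per library, for the lists as deposited and with equal numbers of peaks; points are libraries (dark and light blue, control replicates 1 and 2; dark and light red, si-N6AMT1 replicates 1 and 2) and bars are group means (n = 2). With all peaks the si-N6AMT1 libraries (835 and 871) lie above the control libraries (737 and 689), and with equal numbers the groups overlap.

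Promoter peaks belonged to 786 and 746 genes in the control replicates and to 898 and 931 genes in the si-N6AMT1 replicates, a difference of 148.5 in the means (exact permutation test, p = 0.333). With equal numbers of peaks this difference was 6.5 genes. Protein-coding genes contributed 417 to 509 of them and lncRNA genes 329 to 422. About 91% of promoter peaks in each library (90.4% to 91.5%) lay within 1000 bp of the TSS of a single gene. Between 48.9% and 51.2% of promoter summits lay upstream of the nearest TSS. Introns held 65.9% to 68.7% of promoter summits, exons 10.4% to 12.6%, and 20.9% to 22.9% lay outside protein-coding and lncRNA genes.

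Summits were depleted close to the TSS. The promoter windows held 8.45 and 7.90 summits per Mb in the control replicates and 9.57 and 9.98 in the si-N6AMT1 replicates. The flanks at 2000 to 10000 bp from the nearest TSS held 10.5 and 11.4 summits per Mb for control and 14.0 and 14.4 for si-N6AMT1. The ratio of promoter windows to flanks was 0.803 and 0.693 for control and 0.686 and 0.695 for si-N6AMT1. The mean log2 ratio was -0.48, below 0 in 4 of 4 libraries, and an exact two-sided sign-flip permutation test over the libraries gave p = 0.125, the smallest value it can give with 4 libraries.

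The depletion was sharpest at the TSS itself. Within 250 bp the density was 4.80 to 5.35 summits per Mb, or 0.362 to 0.472 of that in the flanks. In all 4 libraries the lowest of the 200 bp bins within 5000 bp was the first bin downstream of the TSS, with 4.65 and 4.19 summits per Mb for control and 3.81 and 4.28 for si-N6AMT1. Between 800 and 1000 bp upstream the density had risen to 12.6 and 11.2 summits per Mb for control and 14.6 and 15.4 for si-N6AMT1. At the 1000 bp limit, 70 to 104 summits lay in the last 100 bp inside it, with a median fold of 6.99 to 8.29, and 59 to 108 lay in the first 100 bp outside it, with a median fold of 6.73 to 7.81.

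**Figure D2:**
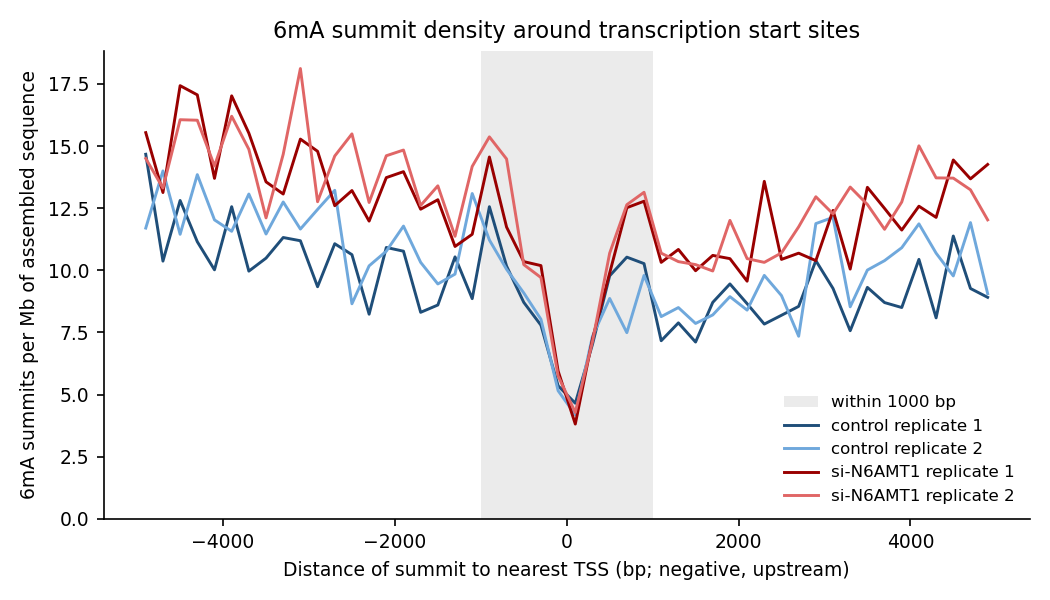
6mA summits per Mb of assembled autosomal sequence (y axis) in 200 bp bins of distance to the nearest TSS (x axis, bp, negative values upstream), with 1 line per library and grey shading for the promoter window. All 4 lines dip at the TSS, to 3.81 to 4.65 summits per Mb in the bin just downstream.

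GC content was compared next, since promoter windows are richer in GC than the rest of the genome. In 500 bp tiles of 50% to 55% GC, promoter tiles held 12.4 and 12.5 summits per Mb in the control replicates and 15.7 and 16.6 in the si-N6AMT1 replicates. Other tiles of that GC content held 9.26 and 9.05 for control and 11.9 and 11.6 for si-N6AMT1. The ratio of promoter to other tiles was above 1 in all 4 libraries there (1.32 to 1.43), as it was from 55% to 60% GC (1.25 to 1.46) and at 60% GC or more (1.13 to 1.57).

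Below 35% GC the relation was the opposite, with 6.09 and 7.08 summits per Mb of promoter tiles in control and 6.21 and 8.57 in si-N6AMT1 against 14.2 to 18.9 in other tiles. The ratio was 0.361 to 0.452 in the 4 libraries there, 0.592 to 0.712 from 35% to 40% GC, and 0.883 to 0.950 from 40% to 45% GC. From 45% to 50% GC it was 0.857 to 0.9995. At 60% GC or more the density was low in both kinds of tile, with means of 2.92 summits per Mb in promoter tiles and 2.25 in others. The depletion was not a property of promoter tiles at every GC content.

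**Figure D3:**
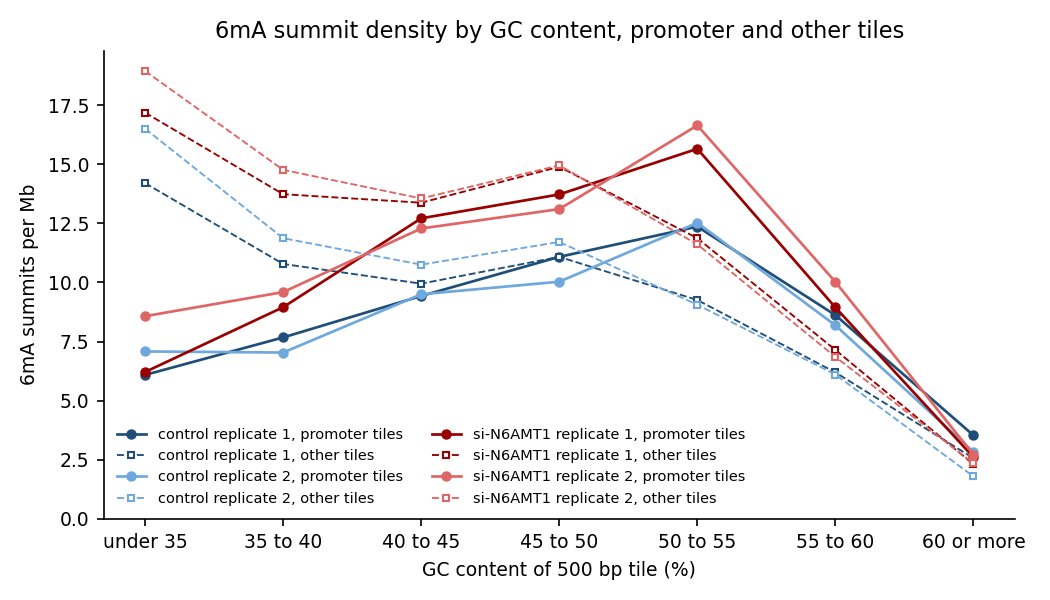
6mA summits per Mb (y axis) in 500 bp tiles grouped by GC content (x axis, percent), for tiles centred within 1000 bp of a TSS (filled symbols, solid lines) and all others (open symbols, dashed lines), with 1 colour per library. Promoter tiles hold fewer summits than other tiles below 50% GC and more from 50% GC upward in all 4 libraries. The ratio came closest to 1 from 45% to 50% GC, at 0.9995 in control replicate 1.

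At the level of genes, promoters poor in CpG carried peaks more often. Genes were classed by the ratio of observed to expected CpG within 500 bp of 1 TSS each. A promoter peak was present at 1.89% and 1.54% of the 10239 high-CpG genes in the control replicates and at 2.04% and 2.06% in the si-N6AMT1 replicates. For the 18414 low-CpG genes the shares were 2.23% and 2.20% for control and 2.57% and 2.70% for si-N6AMT1. The low-CpG share was 1.18 to 1.43 times the high-CpG share in the 4 libraries, and the mean log2 ratio was 0.37 (exact sign-flip permutation test, p = 0.125, above 0 in 4 of 4 libraries). Among protein-coding genes alone the means were 2.94% ± 0.286 (SD, n = 4) for low-CpG and 1.97% ± 0.234 (SD, n = 4) for high-CpG genes.

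The base composition beneath promoter summits differed from that of promoters in general. GC content of the 100 bp on promoter summits was 45.5% and 44.9% for control and 43.63% and 44.01% for si-N6AMT1, against 49.95% over all 865156 tiles of 100 bp in the promoter windows. The mean difference was -5.43 percentage points, below 0 in 4 of 4 libraries (exact sign-flip permutation test, p = 0.125). Summits elsewhere had a lower GC content, at 36.4% to 37.0%, but the mean GC content of all sequence elsewhere was not computed for comparison. A CpG dinucleotide was present at 51.1% to 53.6% of promoter summits and in 72.7% of promoter tiles.

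Simple runs were more frequent at promoter summits than in promoter tiles. A purine or pyrimidine run of 20 bases or more was found at 30.4% and 32.1% of promoter summits in control and at 34.0% and 33.1% in si-N6AMT1, against 2.42% of promoter tiles. A CA or TG repeat of 6 units or more was found at 10.0% and 9.29% for control and at 9.58% and 8.61% for si-N6AMT1, against 0.525% of tiles. An A or T run of 10 bases or more was found at 11.8% and 9.29% for control and at 16.3% and 16.0% for si-N6AMT1, against 2.58% of tiles. Each of these shares was above that of the tiles in 4 of 4 libraries (exact sign-flip permutation test, p = 0.125 each). At least 1 of the 3 kinds of run was present at 42.7% to 46.6% of promoter summits, and 42.4% to 46.7% of other summits.

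Compared with summits elsewhere, promoter summits had more CA or TG repeats, by 3.66 percentage points, and fewer A or T runs, by -4.99 points (exact sign-flip permutation test, p = 0.125 each). In percentage points, the A or T runs were the feature in which the groups lay farthest apart. Their share was higher by 5.58 points in si-N6AMT1, with both si-N6AMT1 libraries above both control libraries (exact permutation test, p = 0.333), and by 4.43 points with equal numbers of peaks. Other summits showed the same order, with 16.8% and 16.2% for control and 20.1% and 20.2% for si-N6AMT1. The part of sequencing depth in this difference was not tested.

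A wider measure, chosen after the printed sequences had been seen and therefore described without a test, was the share of 100 bp windows in which at least 80% of the bases belonged to such a pair on 1 strand. This two-letter sequence lay at 41.9% and 42.7% of promoter summits in control and at 39.5% and 41.0% in si-N6AMT1, against 0.571% of promoter tiles. At other summits the share was 24.9% to 28.9%. Purine or pyrimidine sequence accounted for most of it, at 30.2% to 31.9% of promoter summits against 0.46% of tiles, and sequence of A and C or of G and T for 9.58% to 11.1% against 0.115% of tiles.

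Two-letter sequence went with the strength of the peak. When the promoter peaks of each library were split into 4 equal parts by −log10 q, it lay at 63.4% to 69.0% of summits in the strongest part and at 13.4% to 21.6% in the weakest. A or T runs went the other way, with 3.26% to 4.65% in the strongest part and 9.83% to 25.8% in the weakest. By number of libraries, two-letter sequence lay at the strongest promoter summit of 22.6% of regions called in 1 library, 33.6% in 2, 39.7% in 3 and 53.7% in all 4, while A or T runs fell from 26.6% to 18.6%, 13.6% and 4.38%. In regions away from promoters the corresponding shares were 13.6% and 40.6% for two-letter sequence in 1 and in all 4 libraries. The motif CAGGCTGG, the top-ranking 6mA motif of the paper, was searched on both strands. It was present at 1.36% and 2.03% of promoter summits in control and at 2.99% and 3.44% in si-N6AMT1. Promoter tiles held it in 3.87%. Other summits had it at 2.726% and 2.775% for control and at 3.94% and 4.002% for si-N6AMT1. By number of libraries, it lay at the strongest promoter summit of 5.93% of regions called in 1 library and 0.548% of those called in all 4.

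**Figure D4:**
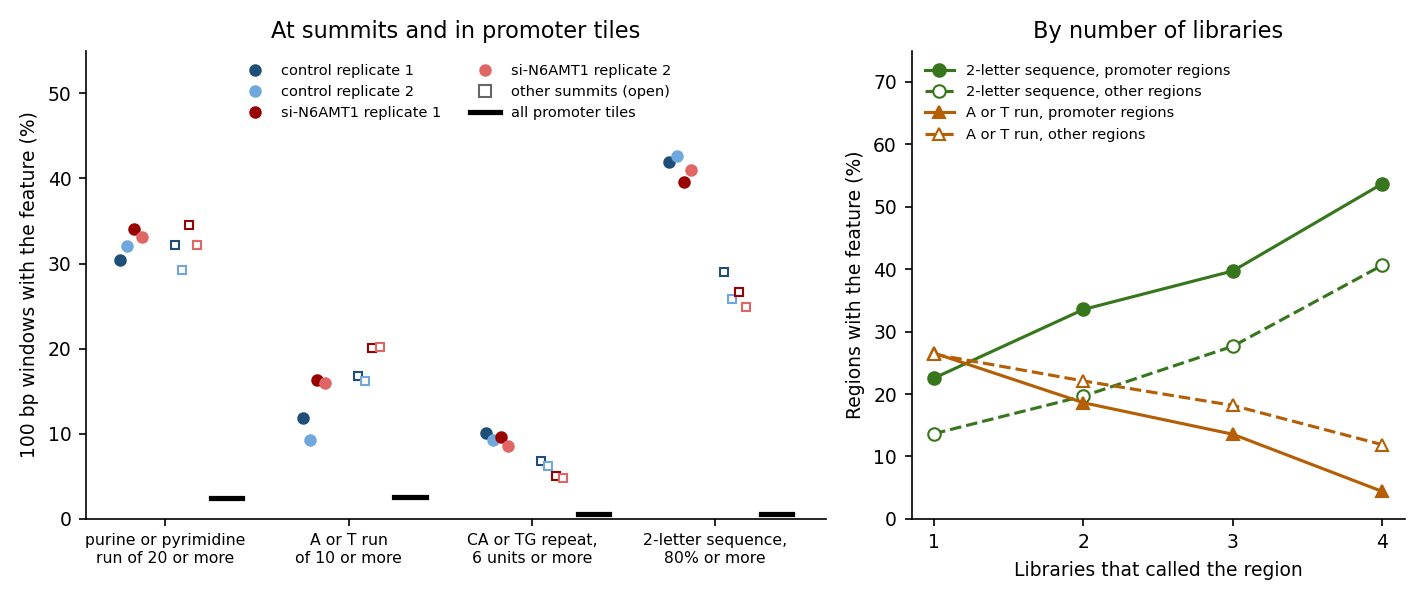
Left, percentage of 100 bp windows (y axis) with each sequence feature at promoter summits (filled circles, 1 per library), at other summits (open squares) and in all promoter tiles (black bars); 2-letter sequence has at least 80% of its bases in 1 pair. Right, percentage of regions with 2-letter sequence or an A or T run at the strongest summit, by the number of libraries that called the region: in promoter regions the first rises from 22.6% to 53.7% and the second falls from 26.6% to 4.38%.

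Promoter peaks had a somewhat higher fold than other peaks. The fold of a peak is the fragment pileup at its summit over the background, with 1 added to each. The median fold of promoter peaks was 7.86 and 7.46 for control and 7.46 and 7.11 for si-N6AMT1, and that of other peaks was 7.39 and 6.91 for control and 6.91 and 6.64 for si-N6AMT1. The mean difference of medians was 0.509, above 0 in 4 of 4 libraries (exact sign-flip permutation test, p = 0.125). The median pileup of promoter peaks was 18 to 20 fragments per library and the lowest 8 to 10, so single calls rest on few fragments. Other peaks had a median pileup of 17 and 18 fragments for control and 19 and 19 for si-N6AMT1. The median background was 1.236 and 1.591 at promoter peaks against 1.291 and 1.704 at other peaks in control. In si-N6AMT1 it was 1.675 and 1.811 against 1.691 and 1.811.

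Promoter peaks were also shared between libraries more often than other peaks. In control, 44.4% and 45.9% of promoter peaks lay in regions called in all 4 libraries, against 40.5% and 36.9% of other peaks. In si-N6AMT1 the shares were 38.4% and 38.0% against 31.7% and 30.2%. The mean difference was 6.82 percentage points, above 0 in 4 of 4 libraries (exact sign-flip permutation test, p = 0.125). This measure was added after the data had been seen.

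Of the 1554 promoter regions, 674 were called in 1 library, 301 in 2, 214 in 3 and 365 in all 4. The regions called in all 4 made up 23.5% of promoter regions, against 16.9% of all 69942 autosomal regions. A region that holds more peaks has more chances to hold a promoter summit. When the summit of the strongest peak alone decided, the share was 21.5%. Of the 365 regions, 282 had a promoter summit in every library, and in the others some summits lay past 1000 bp.

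The regions with calls in 1 group alone were close in share to those of the genome. Both control and neither si-N6AMT1 libraries called 41 promoter regions, or 2.64%, against 2.63% of all autosomal regions. Both si-N6AMT1 and neither control libraries called 94 promoter regions, or 6.05%, against 5.85%. With equal numbers of peaks, the counts were 53 and 61 promoter regions, or 3.88% and 4.47%, against 4.19% and 4.16% of all autosomal regions. The median of the higher of 2 folds in such regions was 7.43 for control and 7.38 for si-N6AMT1. In regions called in all 4 the median of the highest of 4 folds was 11.4. That is a maximum over more libraries, and regions missed by a group are weaker by selection, so these medians are not a like-for-like comparison.

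Among the 365 shared regions, both si-N6AMT1 folds lay above both control folds in 61 promoter regions, or 16.7%, against 16.9% of all autosomal regions called in all 4 libraries. Both lay below in 99 promoter regions, or 27.1%, against 24.3%. The median fold in the shared promoter regions was 9.89 and 8.89 for control and 9.34 and 8.98 for si-N6AMT1, and the median log2 difference between the groups was -0.07, against -0.05 in the other shared regions. The added 1 makes the fold depend on depth, so these values are a description.

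The strongest shared regions had folds of 10.7 to 21.96. SNX32 encodes a sorting nexin of endosomes, and its region at chr11:65601457-65602728 had folds of 19.99 and 16.93 for control and 21.6 and 15.5 for si-N6AMT1. UBE2QL1 encodes a protein related to ubiquitin-conjugating enzymes, and its region at chr5:6446535-6448698 had folds of 18.7 and 19.2 for control and 19.5 and 16.6 for si-N6AMT1. The groups overlapped in both. The regions of FOXS1, a forkhead transcription factor, and of the lncRNA genes ENSG00000280920, LINC01354 (with ENSG00000288760) and BCRP3 also had overlapping folds.

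In 4 of the 10 regions both si-N6AMT1 folds lay below both control folds, and in 0 of the 10 above. The region of APCDD1L, a relative of the Wnt inhibitor APCDD1, and of APCDD1L-DT had folds of 17.6 and 15.7 for control and 12.5 and 11.6 for si-N6AMT1. The region of GPR83, a G protein-coupled receptor, had 19.1 and 14.9 for control and 11.3 and 12.8 for si-N6AMT1. The region of LINC01645 had 19.01 and 21.96 for control and 12.4 and 16.5 for si-N6AMT1, and that of ENSG00000288571 had 16.6 and 18.5 for control and 14.6 and 11.6 for si-N6AMT1. Regions below in this way made up 24.3% of all shared regions, as given above, and the 10 were ranked by the lowest −log10 q percentile, which uses the same calls.

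**Figure D5:**
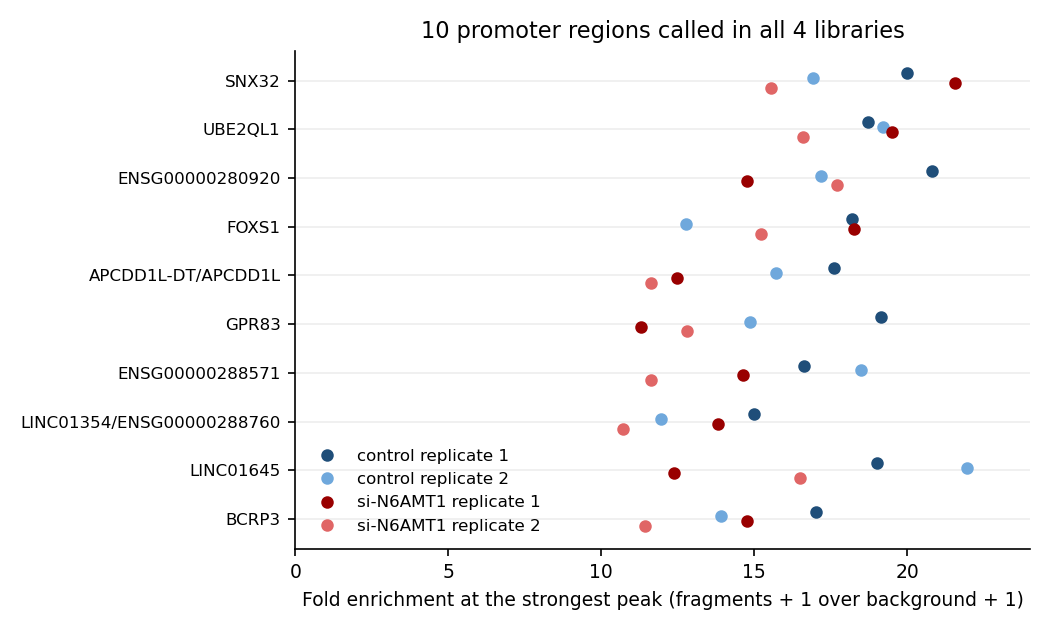
Fold at the strongest peak (x axis) of the 10 highest-ranked promoter regions called in all 4 libraries (y axis, named by gene), with 1 point per library (blue, control; red, si-N6AMT1; lighter shade, replicate 2). Folds lie between 10.7 and 21.96, and in 4 regions, APCDD1L-DT/APCDD1L, GPR83, ENSG00000288571 and LINC01645, both red points lie left of both blue points.

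Of the regions called only in control, the highest-ranked had its summits at -685 and -725 bp from the TSS (negative, upstream) of G0S2, which encodes an inhibitor of adipose triglyceride lipase, and within an intron of the lncRNA gene HSD11B1-AS1. Its folds were 11.5 and 10.2. The next were those of LINC01681 (11.2 and 9.31), ENSG00000289505 (9.76 and 9.73), EDF1, which encodes a transcriptional coactivator (9.15 and 8.06), and RPL7, a protein of the large ribosomal subunit (9.001 and 9.541). Of the regions called only in si-N6AMT1, the highest-ranked lay near the limit of the window of DKK3, which encodes a secreted protein of the Dickkopf family, with folds of 7.32 and 8.29. Its summit was at -986 bp from the TSS in replicate 2 and at -1016 bp, outside the window, in replicate 1. The next were LINC01447 (10.3 and 8.96), ENSG00000287196 (9.53 and 9.10), LINC02178 (10.4 and 8.71) and ENSG00000285742 (9.44 and 8.18).

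A promoter peak in at least 1 library was present at 1643 of 37458 genes, or 4.39%, and in all 4 libraries at 312 genes, or 0.833%, of which 165 were protein-coding and 147 lncRNA genes. Both control and neither si-N6AMT1 libraries had one at 47 of the 1643 genes, and both si-N6AMT1 and neither control libraries at 97 of them. Counted as regions, a different unit, the shares were 2.64% and 6.05% of promoter regions, against 2.63% and 5.85% of all autosomal regions. The si-N6AMT1 share was thus also the higher over all autosomal regions. Most genes had a single promoter region. The highest number was 3, at GABBR1, a subunit of the GABA-B receptor, at PVT1, a lncRNA gene next to MYC, and at RBFOX1, a splicing regulator of neurons. These genes have several start sites, 7, 35 and 20 in the annotation. At PVT1 1 of the 3 regions, at chr8:129010530-129011266, was called in all 4 libraries, with folds of 13.6 and 13.1 for control and 15.5 and 12.8 for si-N6AMT1.

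Gene groups of interest to breast cancer and to adenine methylation had few promoter peaks. None of the 7 cell cycle inhibitors of the study analysed here had one in any library, and all 7 have high-CpG promoters. The paper reports peaks at cell cycle inhibitor genes that decreased after the knockdown, and its text does not place them relative to a TSS. Peaks of these genes outside the promoter windows were not counted here, so this absence does not bear on them. None of 26 luminal breast and ERBB genes had a promoter peak. Among 13 adenine methylases and demethylases, N6AMT1 included, 1 gene had one, in si-N6AMT1 replicate 1 only. This was WTAP, a subunit of the RNA m6A methyltransferase complex, named after its values were seen. With 4.39% of all genes positive, lists of this size would hold few positive genes at the background share.

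Ribosomal protein, proteasome, histone and HOX lists had a promoter peak at 0% to 7.69% of their genes, and were too small to set apart from the 4.39% of all genes. Of 81 cytosolic ribosomal protein genes 2 had one: RPL7, in both control libraries, and RPL36, in all 4. At RPL36 a region at chr19:5673310-5674324 was called in all 4 libraries, with folds of 13.33 and 9.498 for control and 11.1 and 11.7 for si-N6AMT1. Its summits lay at -968 and -933 bp from the TSS in control and at -1018 and -1008 bp, just outside the window, in si-N6AMT1, where the promoter peak came from a further region shared with HSD11B1L. Of 78 mitochondrial ribosomal protein genes 6 had one (7.69%), and of these only MRPS22 had it in all 4, with a region at chr3:139064043-139064882 whose folds were 9.45 and 14.3 for control and 5.28 and 6.87 for si-N6AMT1. Both si-N6AMT1 folds lay below both control folds there, as in 24.3% of all shared regions. Of 49 proteasome genes 1 had one in a single library, of 39 HOX genes 2 had one in a single library each, and of 64 replication-dependent histone genes 0 had one.

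Zinc finger ZNF genes, transcription factors of which many lie in clusters on chromosome 19, had a promoter peak at 36 of 503, or 7.16%, and in all 4 libraries at 8 (1.59%). Over all genes the shares were 4.39% and 0.833%, and the difference was not tested. These 8 were ZNF71, ZNF83, ZNF114, ZNF146, ZNF471, ZNF565, ZNF579 and ZNF691. ZNF146 and ZNF565 shared 1 region, at chr19:36704535-36705140, with folds of 6.83 and 6.77 for control and 6.56 and 7.47 for si-N6AMT1. The region of ZNF114 had folds of 11.6 and 4.71 for control and 13.25 and 15.04 for si-N6AMT1. Both si-N6AMT1 folds lay above both control folds, as in 16.9% of all shared regions. The fold of 4.71 rested on 12 fragments, with its summit at 64 bp from the TSS, against -480 to -416 bp for the other folds.

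Gene families of specialised tissues, nearly all with low-CpG promoters, were near or below the 4.39% of all genes with a promoter peak in at least 1 library. Of 414 olfactory receptor genes 10 had a promoter peak, or 2.42%, and OR5AP2, OR6V1 and OR7G3 had it in all 4 libraries. Of 94 keratin-associated protein genes 2 had one in a single library each, and of 24 bitter taste receptor genes 0 had one. Of 40 genes of beta-defensins, which are antimicrobial peptides, DEFB116 and DEFB119 had one, in all 4 libraries. They made up 5% of that list, against 0.833% of all genes with one in all 4 libraries, and the difference was not tested. Folds at DEFB116 were 7.33 and 6.81 for control and 10.7 and 7.96 for si-N6AMT1, an order seen in 16.9% of all shared regions. At DEFB119 the groups overlapped, with 6.57 and 10.2 for control and 7.29 and 7.11 for si-N6AMT1.

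LncRNA genes were counted by class. Intergenic lncRNA genes named LINC had a promoter peak at 116 of 2202, or 5.27%, antisense genes at 66 of 1776 (3.72%) and divergent transcripts, which share a promoter region with a gene on the other strand, at 22 of 580 (3.79%). In all 4 libraries the numbers were 23, 9 and 4, or 1.04%, 0.507% and 0.69%. Over all genes the shares were 4.39% in at least 1 library and 0.833% in all 4, and over lncRNA genes 716 of 18229 and 147 of 18229 had one. The differences between these classes and the background were not tested. Low-CpG promoters made up 80.2% of the LINC genes, 53.1% of the antisense genes and 8.10% of the divergent transcripts. The 4 divergent transcripts were APCDD1L-DT, CD44-DT, FAM111A-DT and HEATR5A-DT. The region of CD44-DT and CD44, the receptor for hyaluronan, lay at chr11:35159467-35160083 and had folds of 14.2 and 10.6 for control and 15.03 and 12.95 for si-N6AMT1. At LINC00963 1 region was called only in control (folds of 6.97 and 5.96) and another, at a different start site, only in si-N6AMT1 (4.76 and 6.45), so that the gene had a promoter peak in all 4 libraries without a region that all 4 called.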

How the data were processed

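6mA-IP-seq libraries of MDA-MB-453 cells were used, 2 control and 2 si-N6AMT1. No file of the 2 inputs was used here. Per the study's methods, reads were filtered with Trimmomatic, aligned to hg19 with Bowtie2 2.3.5, freed of duplicates with SAMtools 1.9 and passed to MACS2 at a p-value threshold of 1e-05, 1 list per library. Which input served each call is not given in the sources used here. The deposited score is the whole-number part of 10 times −log10 p. The deposited fold divides pileup by local background, each with 1 added. The deposited −log10 p and −log10 q describe the summit.

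Pileup and background were recovered from fold and −log10 p. Pileups were whole numbers within 0.02 for 100% of peaks, and relative depth was 1 to 1.46. TSSs came from basic transcripts of GENCODE v44 lifted to GRCh37: 81293 sites of 37458 genes, whose windows cover 3.25% of the assembled autosomes. Peaks that overlapped by at least 1 bp were merged into regions. High-CpG genes had an observed over expected ratio above 0.75 and GC above 55%, low-CpG genes a ratio under 0.48. Groups were compared with exact permutation tests over 6 assignments, and libraries with exact sign-flip tests. The p-values measure only the spread between these libraries. The study's bdgdiff test needs signal tracks and was not run, so region counts are not counts of differential signal.

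Members, lists and features were chosen with earlier results of these data known. Named regions were the 10 called in all 4 libraries with a promoter summit in each, the 5 only in control and the 5 only in si-N6AMT1 that ranked highest by their lowest percentile of −log10 q over the calling lists. Named genes were the 3 with most promoter regions and list members positive in all 4 libraries, or in at least 2 for lists under 30 genes. The values of 1 cell cycle gene are not reported here. No sequence is printed for RPL7. A repeat annotation was not used here. Scripts, tested on simulated data, used Python 3.11.15, numpy 2.4.6, pandas 2.3.3, scipy 1.17.1, pysam 0.24.0, matplotlib 3.10.9 and samtools 1.23.1. Alternatives tried were equal numbers of peaks, a stricter −log10 q (5 or more), windows of 500 and 2000 bp, protein-coding genes only, 1 TSS per gene, other merging, flanks, tiles and CpG classes, leaving out each library in turn, and a replicate block.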

Additional observations from a re-analysis of the deposited data

How the results depend on the processing

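Depth limits single calls, since promoter summits rest on a median of 18 to 20 fragments, and no exact test here can reach 0.05. Of 127 recomputed values, 106 kept their direction and, for region counts, stayed within 1.5 times the reported count. The values with a replicate block are among these and equal the reported ones by construction. The 4 comparisons of promoter summits with flanks, other peaks, promoter tiles and CpG classes kept their direction under every alternative. The difference in promoter share, -0.10 percentage points, became 0.022 points with equal numbers of peaks and 0.0819 without control replicate 1, and lay between -0.283 and 0.0819 over the 4 libraries left out. Two-letter sequence, an alternative added after the data were seen, was -2.04 points in si-N6AMT1 against control and 3.46 points with equal numbers of peaks. The cause of these changes was not tested. Region counts follow the window by construction: with 500 bp, 2000 bp and protein-coding genes only, regions called only in control numbered 20, 80 and 23, those called only in si-N6AMT1 39, 187 and 49, and those called in all 4 libraries 166, 654 and 196. As shares of promoter regions these were 2.903%, 2.605% and 2.514%, then 5.66%, 6.089% and 5.355%, then 24.09%, 21.3% and 21.42%. The corresponding shares of all autosomal regions were 2.63%, 5.85% and 16.9%. At equal peak numbers, si-N6AMT1 alone had 61 regions, or 4.47% of promoter regions against 4.16% of all autosomal regions. The log2 density ratio was -0.48 as reported and -0.83 with 500 bp windows. The log2 CpG ratio was 0.37 as reported, 0.69 with 500 bp windows, 0.69 with 1 TSS per gene, 0.58 for protein-coding genes and 0.23 with classes split at the median. With a library left out, and hence fewer calls required, 84 to 186 regions were called only in control and 151 to 309 only in si-N6AMT1. These were 6.42% to 13.1% and 10.6% to 23.1% of promoter regions. The corresponding shares of all autosomal regions were 5.98% to 14.1% and 10.3% to 26.0%.

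The labels give the replicates numbers but do not tie a number to a shared batch or day, and log2 fold differences between replicates 1 and 2 of control and of si-N6AMT1 had r = 0.0136 over the 365 shared promoter regions. With a replicate block, the differences were 140 promoter peaks (exact sign-flip p = 0.5), -0.10 percentage points of promoter share (p = 1) and 148.5 genes (p = 0.5), where 0.5 is the smallest value 2 pairs allow. A mean of pair differences equals the difference of group means, so the block could change only the p-values.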
